A study of Citrus sinensis with 6 samples.

Results

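A set of 94 genes was described that were high in the libraries CK1, T1 and T3 and low in CK2, CK3 and T2, and therefore crossed the boron supply of the plants. The genes were chosen by their own values from the 29875 genes of the deposited table. The lowest log2(FPKM + 1) of CK1, T1 and T3 had to lie above the highest of CK2, CK3 and T2, the difference of the means of log2(FPKM + 1) had to be at least 1.5, and the mean over CK1, T1 and T3 had to be at least 5 FPKM. FPKM is the number of fragments mapped to a gene, scaled to the length of the gene and to the depth of the library, so levels are per length of the gene. CK1, T1 and T3 are called the high libraries here and CK2, CK3 and T2 the low libraries. Since these values chose the genes, the differences between the high and the low libraries are given as a description, with no test.

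The 6 libraries were made from leaves of tissue-cultured sweet orange (Citrus sinensis, the cultivar Bingtang according to the methods of the study) collected on day 25. The 3 CK libraries came from plants on sufficient boron and the 3 T libraries from boron-deficient plants, with 0.25 and 0.01 mg/L given as boron in the design of the series and as boric acid in the methods of the study, while the treatment protocol of every library reads 0.01 mg/L. All plants grew from tissue culture on the same nutrient medium, and no genotype or other agent differed between the groups in the labels. CK was titled leaf blades and T was titled leaf, so the part sampled and the boron supply cannot be told apart. Whether separate plants gave the libraries of a group is not said in the sources, and p-values below measure the spread between these libraries. Across the 16421 tested genes, CK1 correlated most with T3 (Pearson r of log2(FPKM + 1) 0.958) and T1 (0.943), above CK2 (0.932) and CK3 (0.888), and T2 correlated most with T1 (0.937), with 0.899 to CK1, 0.891 to CK2, 0.886 to CK3 and 0.875 to T3. CK1 thus stood nearer to T1 and T3 than to the rest of its own group. These correlations are across genes, which are not replicates, and whether a library was mislabelled cannot be told from the labels, which were kept. The labels also give the cell type as nucleus, while the molecule is total RNA. The reads recovered per library were 17689285 to 24026259. In every library the genes of the photosynthesis and antenna pathways, which mark the mesophyll, summed to at least 22471 FPKM.

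Boron in plants is held mainly in the primary cell wall, where borate joins chains of the pectin rhamnogalacturonan II. A primary wall also holds cellulose and xyloglucan, and enzymes that cut and rejoin xyloglucan loosen or strengthen it as cells grow. The annotated genes of the set included xyloglucan transferases, genes of glutathione metabolism, which supplies the main small thiol of the cell, genes annotated as nitrate and nitrite reductases, peroxisomal hydroxy-acid oxidases and transcription factors. No reference sequence could be matched to the gene identifiers of the table, so the genes are given by identifier, annotation and level.

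The 94 genes made up 1.36% of the recovered reads in T1, 1.12% in CK1 and 1.04% in T3. Their share was 0.584% in T2, 0.438% in CK2 and 0.199% in CK3. The median gene of the set stood at 64.1 FPKM in T1, 49.6 in CK1, 41.8 in T3, 26.1 in T2, 12.2 in CK2 and 6.58 in CK3. T2 was thus the highest of the low libraries in this median and CK3 the lowest. In these bulk samples, fewer cells of a type and less RNA per cell cannot be told apart.

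**Figure D1:**
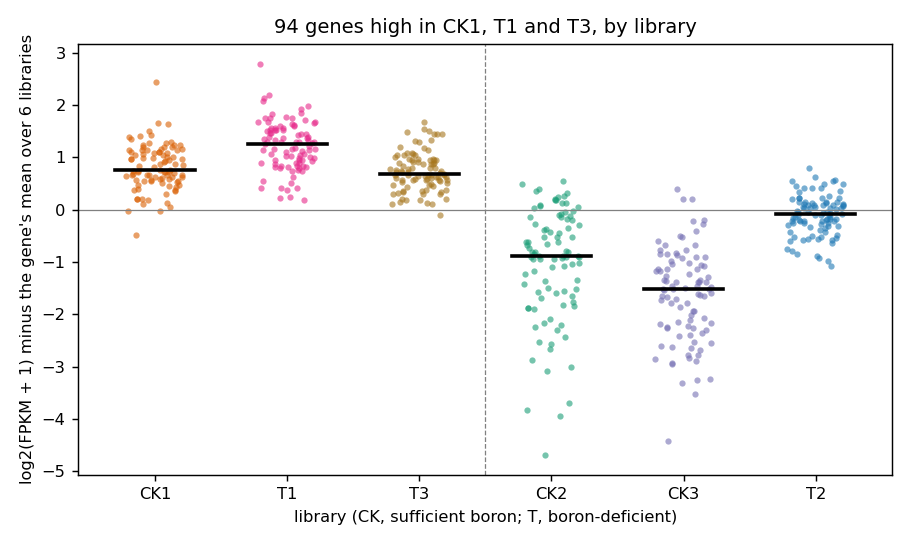
Each point is 1 of the 94 genes in 1 library, as log2(FPKM + 1) minus the mean of that gene over the 6 libraries, and the black bars are the medians. The high libraries are left of the dashed line, and the points of CK2 and CK3 spread more widely than those of T2.

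The fold of the mean FPKM, high over low libraries, ran from 2.15 to 15.5 with a median of 3.18. The median difference of mean log2(FPKM + 1) was 1.74, against -0.08 over all 16421 genes with at least 1 FPKM in at least 3 libraries. The mean level in the high libraries ran from 5.13 to 362 FPKM with a median of 54.0, and 30 genes reached 100 FPKM. The separation was narrow in many genes. The lowest high library stood above the highest low library by a median of 1.37-fold, by at least 2-fold in 9 genes and by less than 1.1-fold in 15. All 94 genes passed the filter on low values because the rule asks for a level in the high libraries, and 73 had at least 1 FPKM in every library. Over the 16421 genes, the 3 high libraries all lay above the 3 low ones in 5.05%, with no threshold on size, and 0.572% met the whole rule. The same thresholds turned round gave 163 genes high in CK2, CK3 and T2, and applied to the boron groups gave 90 genes high in the 3 T libraries and 58 high in the 3 CK libraries. With a library left out, the rule was met by 196 genes without T2, 161 without CK1, 150 without CK2, 136 without T3, 87 without T1 and 69 without CK3. Of the 94 genes, these held 93, 80, 67, 87, 65 and 41, in the same order, so that fewer of the set were kept without CK3 than without any other library.

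At the threshold, the genes just inside were Cs_ont_1g018080, annotated as a ubiquitin protein ligase, Cs_ont_2g014800 and Cs_ont_6g013510, each with a difference of 1.51. The genes just outside were Cs_ont_4g024770, annotated as a lanosterol synthase, with 1.498, Cs_ont_1g021870 with 1.49 and Cs_ont_9g001740, annotated as an acetate-CoA ligase, with 1.49. These values differ little, and the threshold cuts through a continuous range.

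The rule did not use the order of the libraries within the high or within the low ones. T1 was the highest library in 59 of the 94 genes, or 62.8%, against 40.2% of all tested genes in which T1 exceeded CK1 and T3. CK1 was the highest in 26 genes, or 27.7%, near the 23.2% of all tested genes in which it exceeded T1 and T3. T3 was the highest in 9, or 9.57%, against 36.6%. Among the low libraries T2 was the highest in 63 genes, or 67.0%, against 36.4% of all tested genes. Near shares were found in the 163 genes high in CK2, CK3 and T2, in which T1 exceeded CK1 and T3 in 60.7% and T2 exceeded CK2 and CK3 in 64.4%. CK3 was the lowest library in 61 genes, or 64.9%, against 24.1% of all tested genes in which it was the lowest of CK2, CK3 and T2. CK2 was the lowest in 32 genes, or 34.0%, against 47.0%, and T2 in 1. These are descriptions of libraries grouped by the outcome.

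CK2 and CK3 split the set into genes low mainly in CK3 and genes low mainly in CK2. Where CK3 was the lowest, CK2 stood above it by a median of 3.34-fold, and where CK2 was the lowest, CK3 stood above it by a median of 2.96-fold. CK2 was at least 3 times CK3 in 33 genes, or 35.1%, against 4.41% of all tested genes. CK3 was at least 3 times CK2 in 16 genes, or 17.0%, against 4.17%. The rule asks for large differences between libraries, so these shares describe the chosen genes. The xyloglucan transferase genes belonged to the CK3-low genes, and the glutathione metabolism and hydroxy-acid oxidase genes to the CK2-low genes.

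**Figure D2:**
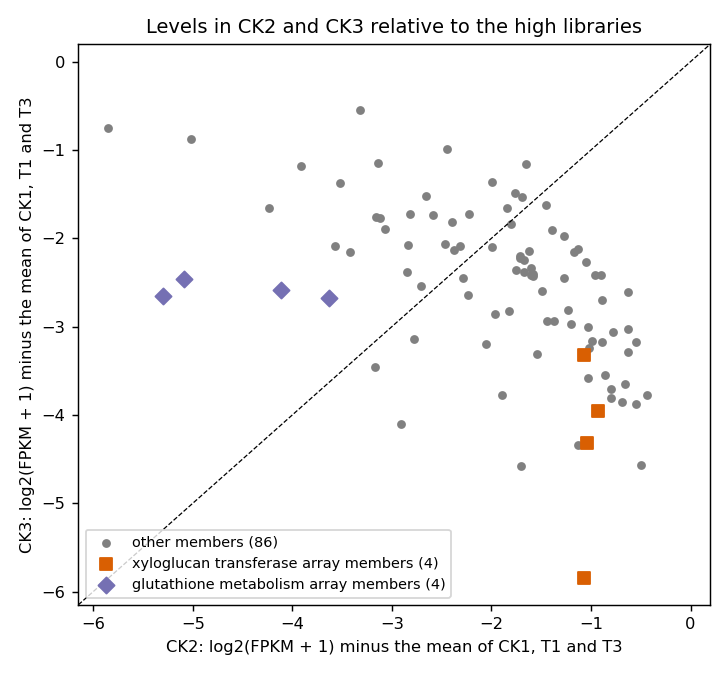
Each point is 1 of the 94 genes, with its log2(FPKM + 1) in CK2 (horizontal) and CK3 (vertical), each minus the mean of CK1, T1 and T3. Points under the dashed line of equal level were lower in CK3, and the 4 xyloglucan transferase genes lie under it and the 4 glutathione metabolism genes above it.

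Genes annotated as xyloglucan:xyloglucosyl transferases, which cut a xyloglucan chain and join it to another in the cell wall, supplied 4 of the 94 genes, all from 1 stretch of chromosome 4. Cs_ont_4g026340 stood at 162 FPKM in CK1, 206 in T1 and 135 in T3, against 86.0 in CK2, 69.4 in T2 and 9.72 in CK3. Cs_ont_4g026420 stood at 76.2 FPKM in CK1, 103 in T1 and 59.2 in T3, against 36.2 in CK2, 24.3 in T2 and 0.364 in CK3. The latter value rested on 3 recovered reads. In both genes CK3 lay far below the other low libraries, and on the log2(FPKM + 1) scale CK2 and T2 stood closer to the high libraries than to CK3. Cs_ont_4g026350 stood at 102 FPKM in CK1, 144 in T1 and 92.1 in T3, against 52.0 in CK2, 90.4 in T2 and 10.1 in CK3. Cs_ont_4g026500 stood at 24.3 FPKM in CK1, 39.7 in T1 and 19.0 in T3, against 12.3 in CK2, 11.2 in T2 and 0.377 in CK3. In Cs_ont_4g026350 the level of T2 was within 1.02-fold of T3, so this gene was separated by CK2 and CK3 rather than by T2.

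The 4 genes lie in a stretch of 19 consecutive identifiers, from Cs_ont_4g026320 to Cs_ont_4g026500, of which 15 carry the transferase term and 11 of these passed the filter. The stretch and the term were picked out after the values were seen, so the counts over them are only a description. CK3 was the lowest of the low libraries in all 11, and T1 was the highest of the high libraries in 9 and CK1 in 2. The difference of mean log2(FPKM + 1) ran from 0.98 to 2.85 over the 11 with a median of 1.66, and 5 had all 3 high libraries above the low ones. The most abundant of the stretch, Cs_ont_4g026360, missed the threshold with a difference of 1.48. It stood at 3161 FPKM in CK1, 1860 in T1 and 2023 in T3, against 1718 in CK2, 920 in T2 and 343 in CK3. Elsewhere in the genome 4 genes with the transferase term passed the filter, and none was in the set. Their median difference was 0.33, against -0.08 over all tested genes. All 4 differences were positive, and 1 gene had all 3 high libraries above the low ones. Neighbouring copies can share near-identical stretches, and whether reads were split or lost between them in the counting is not stated, so the level of a single copy is uncertain. Some gene models of the set were also short here, with 342 bases for Cs_ont_4g026420 and 330 for Cs_ont_4g026500.

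Genes assigned to the glutathione metabolism pathway supplied another 4, all from 1 stretch of chromosome 9 and carrying only this pathway assignment. Cs_ont_9g010850, the gene with the largest difference of the set, stood at 262 FPKM in CK1, 429 in T1 and 204 in T3, against 6.27 in CK2, 44.4 in CK3 and 150 in T2. Cs_ont_9g010810 stood at 135 FPKM in CK1, 220 in T1 and 183 in T3, against 4.21 in CK2, 31.1 in CK3 and 97.5 in T2. Here CK2 was the lowest library by a wide margin, and on the log2(FPKM + 1) scale T2 lay closer to the high libraries than to CK2. Cs_ont_9g010840 stood at 53.5 FPKM in CK1, 124 in T1 and 63.1 in T3, against 5.13 in CK2, 10.9 in CK3 and 38.3 in T2. Cs_ont_9g010960 stood at 23.9 FPKM in CK1, 33.3 in T1 and 27.0 in T3, against 0.665 in CK2, 3.79 in CK3 and 15.7 in T2. The order from T1 down to T2, CK3 and CK2 was thus shared by these 4 genes, while CK1 and T3 changed places.

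This stretch runs over 19 consecutive identifiers, from Cs_ont_9g010790 to Cs_ont_9g010970, of which 12 carry the pathway and 7 of these passed the filter. It too was picked out after the values were seen, so the counts over it are only a description. CK2 was the lowest of the low libraries and T1 the highest of the high libraries in all 7, and the median difference was 2.42. The smallest, in Cs_ont_9g010880, was 0.23 at levels near 1 FPKM. Cs_ont_9g010790 stayed outside the set because CK1 stood at 1.40 FPKM and T2 at 2.96, while T1 stood at 16.7 and T3 at 7.32. Of the other 81 tested genes of glutathione metabolism none was in the set, their median difference was 0.06, and 11 had all 3 high libraries above the low ones. Of all 88 tested genes of the pathway, 8 were higher and 1 lower in T than in CK at a 2-fold difference or more and a limma p, unadjusted, up to 0.05, where 1.27% of all tested genes were higher and 1.08% lower. Cs_ont_9g010840 of the set was among the 8, a direction that the choice of genes favours. The same uncertainty over near-identical neighbours holds here, and gene models were again short, with 369 bases for Cs_ont_9g010850 and 366 for Cs_ont_9g010810.

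**Figure D3:**
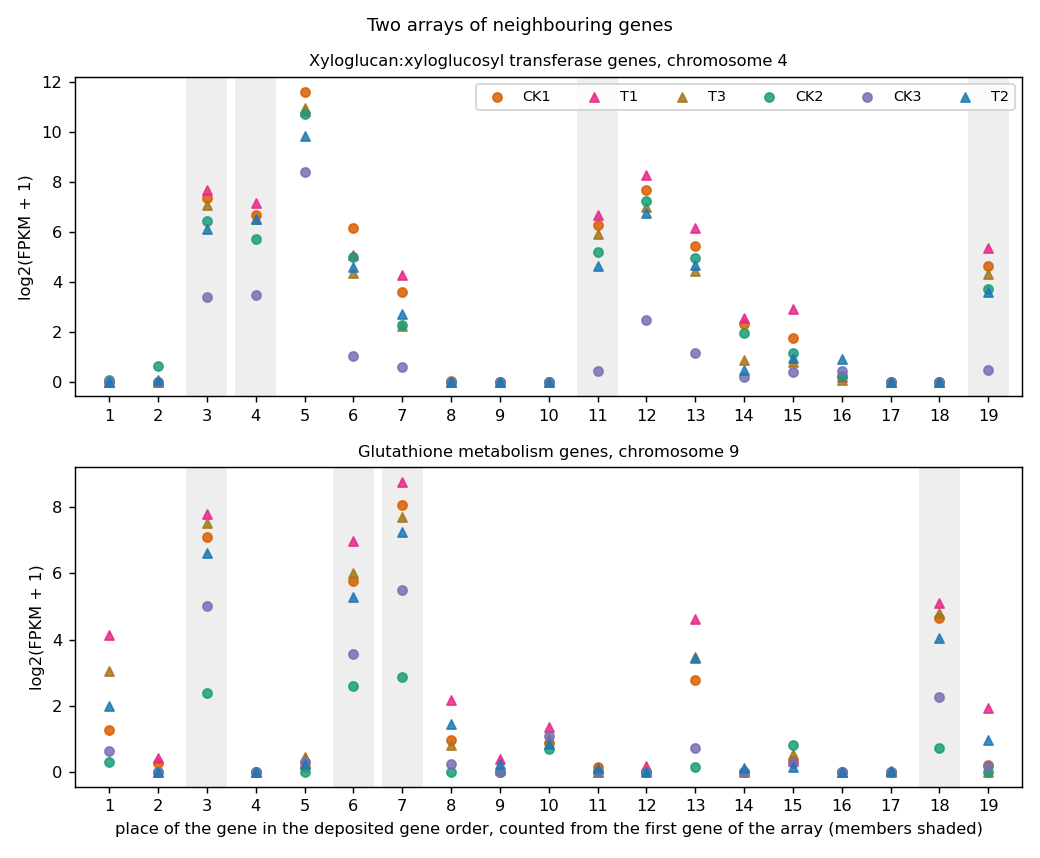
Each point is the log2(FPKM + 1) of a gene in 1 library, by its place among the 19 consecutive identifiers of the stretch on chromosome 4 (top, xyloglucan transferases) and on chromosome 9 (bottom, glutathione metabolism), with circles for CK, triangles for T and members shaded. CK3 is the lowest point in the expressed genes of the upper panel with the transferase term, and CK2 in those of the lower panel with the pathway.

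Nitrate is carried to ammonium by nitrate reductase in the cytosol and nitrite reductase in the plastid. Genes with terms of nitrate reductase and of nitrite reductase activity were in the set. The gene with the nitrite reductase terms is listed under both chloroplast and apoplast. Its terms include the NO-forming activity, so whether it is the plastid enzyme of this route is not settled by the annotation. Cs_ont_3g009960, annotated as nitrate reductase, stood at 207 FPKM in CK1, 454 in T1 and 327 in T3, against 88.0 in CK2, 43.3 in CK3 and 187 in T2. Cs_ont_8g024650, which carries the terms nitrite reductase activity and nitrite reductase (NO-forming) activity, stood at 77.5 FPKM in CK1, 178 in T1 and 112 in T3, against 36.9 in CK2, 25.5 in CK3 and 62.3 in T2. The 6 libraries had the same order in both genes, T1, T3, CK1, T2, CK2 and CK3 from high to low, and T2 was within 1.11-fold of CK1 in the nitrate reductase gene. No other of the 19 tested genes of nitrogen metabolism had all 3 high libraries above the low ones. In 3 of the 19 they lay below, among them Cs_ont_6g008450, annotated as a carbonate dehydratase, with a difference of -3.56. The median difference of the 19 was 0.12, and 3 were higher and 2 lower in T by the criterion of fold and unadjusted p, against 1.27% higher and 1.08% lower of all tested genes. Both genes of the set were among the higher ones, a direction that the choice of genes favours, so the count is not read as a response of the pathway. They are given with that comparison below.

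Adjacent genes annotated as (S)-2-hydroxy-acid oxidases, the family of the peroxisomal glycolate oxidase of photorespiration, were in the set. Cs_ont_1g018640 stood at 16.0 FPKM in CK1, 32.9 in T1 and 27.4 in T3, against 0.350 in CK2, 7.05 in CK3 and 11.5 in T2. Cs_ont_1g018650 stood at 6.91 FPKM in CK1, 19.96 in T1 and 13.6 in T3, against 0.549 in CK2, 2.92 in CK3 and 6.39 in T2. The CK2 values rested on 2 and 5 recovered reads. Their gene models were short, with 294 and 468 bases. Of the 8 genes with this term, all tested, 6 had the 3 high libraries above the low ones, against 5.05% of all tested genes. In 1 they lay below. Outside the set, the differences were 0.69, 0.95 and 0.31 in Cs_ont_1g018610, Cs_ont_1g018760 and Cs_ont_1g018800. These have identifiers near the pair, and the uncertainty over near-identical neighbours holds here too. Cs_ont_6g009990, which also carries a D-lactate dehydrogenase term, had 0.37. Cs_ont_5g032990, the most abundant of the 8, had no such separation. It stood at 404 FPKM in CK1, 302 in T1 and 321 in T3, beside 376 in CK2, 362 in CK3 and 199 in T2. This term was looked at after the values were seen.

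Among genes of hormone metabolism, Cs_ont_6g003200 is annotated as an abscisic acid 8'-hydroxylase, the enzyme that starts the breakdown of this stress hormone. It stood at 311 FPKM in CK1, 254 in T1 and 235 in T3, against 187 in CK2, 10.2 in CK3 and 113 in T2. CK3 was again far below the rest. The other 4 tested genes with this term were not in the set, and in 2 of them all 3 high libraries lay below the low ones. This term, too, was looked at after the values were seen. Cs_ont_2g022650, annotated as a glucosyltransferase of indole-3-butyrate and salicylic acid, stood at 29.3 FPKM in CK1 but only 10.3 in T1 and 11.2 in T3, against 3.99 in CK2, 4.59 in CK3 and 5.45 in T2. CK1 was the highest library by far, and T1 and T3 also lay above the low libraries. The means of this gene in T and CK differed by a log2 fold change of 0.03. Cs_ont_2g003390, whose term is hormone activity, stood at 14.1 FPKM in CK1, 30.5 in T1 and 18.5 in T3, against 4.66 in CK2, 0.537 in CK3 and 7.36 in T2.

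Cs_ont_7g014160, annotated as a polygalacturonase inhibitor, belongs to the wall proteins that bind pectin-degrading enzymes of pathogens. It stood at 186 FPKM in CK1, 380 in T1 and 204 in T3, against 166 in CK2, 15.6 in CK3 and 70.0 in T2. CK2 was within 1.12-fold of CK1, so CK2 and T2 differed more from each other than CK2 did from CK1. Cs_ont_2g004120, annotated as a glutamate receptor, a family of cation channels in plants, stood at 93.8 FPKM in CK1, 68.0 in T1 and 66.5 in T3, against 47.3 in CK2, 5.09 in CK3 and 25.1 in T2. Cs_ont_1g026230, annotated as a coniferyl-alcohol glucosyltransferase, which glucosylates a lignin precursor, stood at 170 FPKM in CK1, 112 in T1 and 145 in T3, against 90.5 in CK2, 22.2 in CK3 and 40.9 in T2. Both were highest in CK1 and lowest in CK3.

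Cs_ont_4g024700 carries the terms of lanosterol synthase and oxidosqualene cyclase, enzymes that fold oxidosqualene into sterol or triterpene skeletons. It stood at 118 FPKM in CK1, 83.9 in T1 and 179 in T3, against 12.8 in CK2, 53.9 in CK3 and 46.3 in T2. Unlike most of the set it was highest in T3. Its position on chromosome 4 is close to Cs_ont_4g024770, the gene with the same term just outside the threshold, which stood at 5.46 FPKM in CK1, 4.18 in T1 and 8.65 in T3, against 0.934 in CK2, 1.86 in CK3 and 1.60 in T2. The libraries ranked T3, CK1 and T1 in both, and both were lowest in CK2.

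Cs_ont_3g020470, named after its values were seen, is annotated as an alternative oxidase, the mitochondrial enzyme that passes electrons to oxygen without the cytochrome pathway. It stood at 22.2 FPKM in CK1, 20.3 in T1 and 16.4 in T3, against 2.26 in CK2, 6.16 in CK3 and 10.2 in T2. The other 2 genes with this term had no such separation, and 1 of them, Cs_ont_8g015160, was higher in CK3 (31.6 FPKM) than in any high library. Cs_ont_5g030780, with terms of ATP hydrolysis and the assembly of respiratory chain complex III, had the widest gap of the set. It stood at 27.1 FPKM in CK1, 26.0 in T1 and 20.5 in T3, against 2.70 in CK2, 1.87 in CK3 and 6.36 in T2, so that its lowest high library lay 3.22-fold above its highest low library. Cs_ont_7g023390, a protein kinase by annotation, stood at 146 FPKM in CK1, 164 in T1 and 123 in T3, against 19.5 in CK2, 42.8 in CK3 and 63.6 in T2.

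Genes with the term of DNA-binding transcription factor activity, whose products bind DNA and set the transcription of other genes, numbered 7. The most abundant gene of the whole set was among them. Cs_ont_5g007750 stood at 353 FPKM in CK1, 362 in T1 and 372 in T3, against 234 in CK2, 36.3 in CK3 and 234 in T2. The 3 high libraries were nearly equal and CK2 equalled T2, so the size of its difference rested on CK3. Cs_ont_9g008210 had the same form, with 92.3 FPKM in CK1, 85.6 in T1 and 75.2 in T3, against 46.0 in CK2, 6.25 in CK3 and 36.4 in T2. Cs_ont_3g009530 had the largest difference of the 7, with 20.7 FPKM in CK1, 47.4 in T1 and 17.6 in T3, against 2.001 in CK2, 1.44 in CK3 and 11.7 in T2. In this gene T1 stood out above CK1 and T3. Cs_ont_5g036400 stood at 49.5 FPKM in CK1, 99.2 in T1 and 51.0 in T3, against 21.0 in CK2, 5.47 in CK3 and 45.0 in T2. Cs_ont_4g005740, also assigned to hormone signal transduction, stood at 45.3 FPKM in CK1, 93.0 in T1 and 32.3 in T3, against 21.3 in CK2, 6.49 in CK3 and 31.4 in T2. T2 came within 1.099-fold of the lowest high library in the former and within 1.03-fold in the latter.

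**Figure D4:**
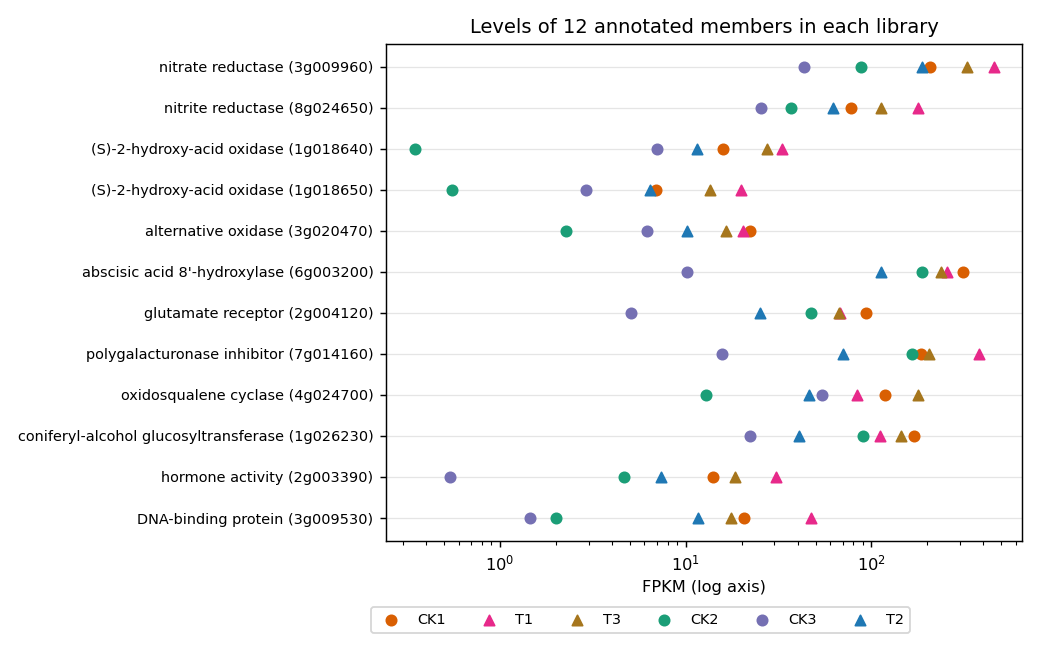
FPKM on a log axis of 12 annotated genes of the set in each library, with circles for CK and triangles for T. The lowest point is CK3 in 8 of the 12 genes and CK2 in 4, and T1 is the highest in 7.

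Of the 94 genes, 41 carried a GO or KEGG annotation, or 43.6%, against 56.9% of the tested genes and 49.7% of the genes high in CK2, CK3 and T2. The set had 7 genes in response to cold, 6 in response to auxin, 5 in response to heat and 5 in the cell wall, and the 4 xyloglucan transferase genes were among them in each of these lists. Response to cold took 17.1% of the annotated genes of the set and 2.56% of the annotated tested genes, and response to auxin 14.6% and 2.14%. Over all their tested genes, the median difference was -0.02 for response to cold (239 genes), -0.17 for response to auxin (200 genes), 0.03 for response to heat (145 genes) and -0.11 for the cell wall (321 genes), against -0.08 over all tested genes. Transcription factors took 11.1% of the annotated genes high in CK2, CK3 and T2. They took 17.1% of the annotated genes of the set, against 6.85% of the annotated tested genes. Chloroplast genes took 2.44%, or 1 gene, against 14.1%, and nucleus genes 14.6% against 25.0%. There were 14 lists with no gene in the set, among them photosynthesis, antenna proteins, carbon fixation, DNA replication and protein folding. They had 14 to 101 tested genes each, and with 0.572% of all tested genes in the set a count of 0 is near the background.

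**Figure D5:**
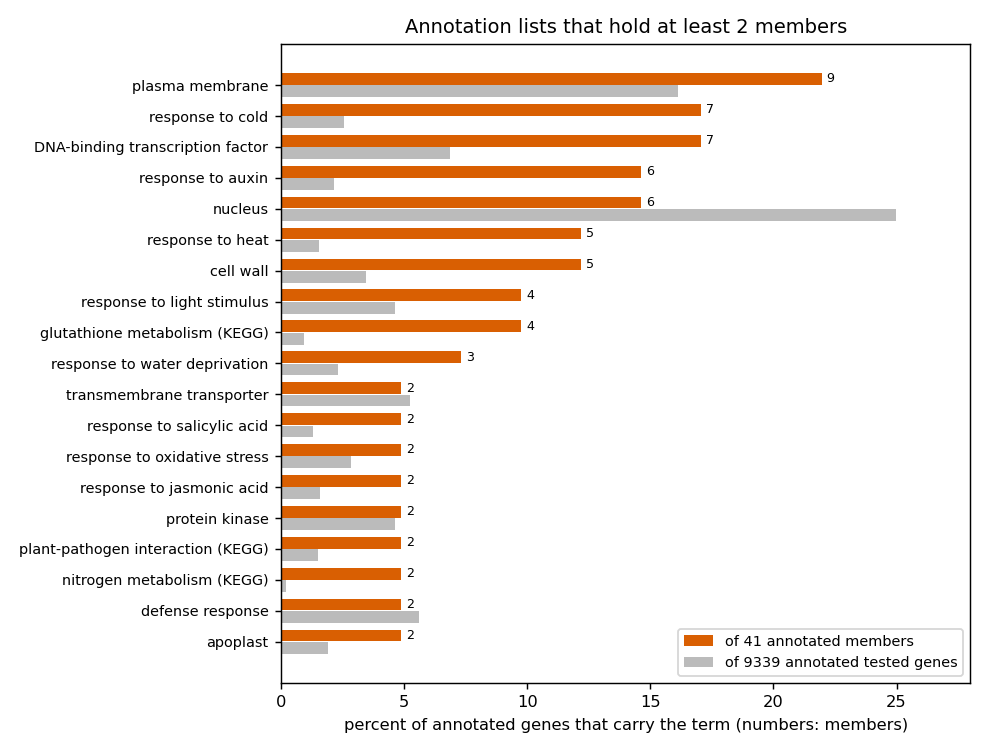
Percent of annotated genes that carry a term, for the 41 annotated genes of the set (orange, with the number of genes) and the 9339 annotated tested genes (grey), for lists with at least 2 genes of the set. The grey bar is the longer one for the nucleus, defense response and transmembrane transporters, and the orange bar for every other list shown.

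The genes of the set lay on all 9 chromosomes, with 15 on chromosome 4, 12 on chromosome 9 and 4 on chromosome 7, and 2 were unplaced. Another gene of the set lay within 3 identifiers of 15 genes, or 16.0%, against 9.82% of the genes high in CK2, CK3 and T2. The sets differ in size, which affects such a share, and no share for all tested genes was counted. Part of the 15 were genes of the stretches and the pair described above. There were 6 pairs of direct neighbours and no longer run. Besides the pairs of xyloglucan transferase, glutathione metabolism and hydroxy-acid oxidase genes, they were Cs_ont_3g008480 with Cs_ont_3g008490, Cs_ont_4g000600 with Cs_ont_4g000610, and Cs_ont_4g001770 with Cs_ont_4g001780, named by position. The median gene model of the set was 1297 bases long, against 1980 bases over all tested genes. A gene of the set had a median of 624 recovered reads in a library, and 20 genes had fewer than 20 reads in at least 1 library.

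Markers of other cell types were summed per library beside the set. The list of the mitotic cell cycle, which marks dividing cells, summed to 2472 to 2724 FPKM in the high libraries and to 3055 to 3494 in the low libraries, with no overlap. Of its 195 genes 13 were at 0 in all libraries, and 1 gene of the set, Cs_ont_7g023390, belonged to it. Of its 156 tested genes, 54 had all 3 high libraries below the low ones and 3 had them above. In trichome differentiation 9 of 24 tested genes had them below and 0 above. In the nucleus list 368 of 2333 tested genes had them below and 78 above. The share of all tested genes below was not counted, while 5.05% had them above. Other large lists also had many genes below, with 252 of 1505 tested genes of the plasma membrane. The counts below were 103 of 640 for transcription factors, 78 of 433 for protein kinases and 114 of 1318 for the chloroplast. Without a share over all tested genes, nothing is read from these counts. The photosynthesis and antenna genes summed to 22471 to 37230 FPKM in the high and 31489 to 39276 in the low libraries, and genes of stomatal movement to 7455 to 10633 and 10310 to 12861. Genes of cuticle development summed to 855 to 1520 and 1482 to 2456, of xylem development to 210 to 433 and 296 to 366, of phloem development to 119 to 313 and 155 to 247, and of trichome differentiation to 419 to 458 and 444 to 486. These ranges overlapped, and none of these 6 lists held a gene of the set. Their part in the pattern was not tested.

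The comparison for which the plants were grown, T against CK, was fitted with limma over all 16421 tested genes. The rule places 2 of the 3 T libraries and 1 of the 3 CK libraries on the high side, so a higher mean in T follows from the choice of the genes and nothing is read from it. The log2 fold change was positive in all 94 genes, with a median of 1.20 and a range from 0.03 to 2.49, against a median of 0.02 over all tested genes. No gene of the set had an adjusted p under 0.05, where 0.00609% of the tested genes, 1 gene, was called higher, and the smallest adjusted p (limma, Benjamini-Hochberg) was 0.887. At an unadjusted p under 0.05, 13 genes of the set were higher in T, against 2.29% of the tested genes. The same 13 passed the criterion of a 2-fold difference or more with an unadjusted p up to 0.05, where 1.27% of the tested genes were called higher and 1.08% lower. T and CK overlapped in every gene of the set, as the rule requires. The count of 13 moved with single libraries, to 55 without CK1, 22 without T2, 1 without CK3, 1 without T3, and 0 without CK2 or without T1, and it was 8 after rescaling the libraries by median-of-ratios factors.

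Cs_ont_3g009960, the nitrate reductase gene, averaged 113 ± 84.5 FPKM over CK and 323 ± 134 over T (SD, n = 3). Its log2 fold change was 1.70 ± 0.60 (SE) with an adjusted limma p of 0.938. Cs_ont_8g024650, the gene with the nitrite reductase terms, averaged 46.6 ± 27.3 FPKM over CK and 117 ± 57.9 over T, and its log2 fold change was 1.34 ± 0.51 with an adjusted limma p of 0.983. In both, CK1 lay above T2, and the groups overlapped. The smallest p of the set was that of Cs_ont_8g026650, which has no annotation. It stood at 15.3, 2.41 and 7.23 FPKM in CK1, CK2 and CK3 and at 55.1, 14.5 and 52.2 in T1, T2 and T3, with a log2 fold change of 2.22 ± 0.71 and an adjusted limma p of 0.887. Only CK1 exceeded a T library here, by 1.05-fold over T2. The other 10 genes were Cs_ont_1g018650, Cs_ont_9g010840, Cs_ont_7g003860, which is assigned to endocytosis and protein processing, and 7 without annotation, Cs_ont_6g010770, Cs_ont_5g018830, Cs_ont_1g002620, Cs_ont_2g001940, Cs_ont_8g011070, Cs_ont_2g012080 and Cs_ont_8g026630. Their log2 fold changes ran from 1.23 in Cs_ont_8g026630 to 2.41 in Cs_ont_1g002620. In Cs_ont_1g002620 the levels were 66.5, 12.2 and 4.78 FPKM in CK1, CK2 and CK3 and 123, 52.4 and 116 in T1, T2 and T3.

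Within the high libraries T1 and T3 both exceeded CK1 in 34 genes, or 36.2%, close to the 37.6% of all tested genes, and within the low libraries T2 exceeded both CK2 and CK3 in 63, as given above. Both held in 27 genes, the nitrate and nitrite reductase genes among them, and the share of all tested genes with both was not counted. CK1 was the highest library of all in 26 genes, or 27.7%. This is near the 23.2% of all tested genes in which CK1 exceeded T1 and T3. The rule did not use these orders. With 1 library of CK in the former set and 1 of T in the latter, they have no replicates and were not tested.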

How the data were processed

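Per the methods of the study, the authors used fastp for trimming, HISAT2 for alignment and HTSeq for counting, and deposited FPKM per gene and library. The genome version named by the study is v3.0, but its methods do not state that the reads were aligned to it. Tool versions and the strand setting are not stated in the sources used here. Besides FPKM the table holds group means, log2 fold changes, p-values and calls made by the authors, which were not used. GO and KEGG identifiers came from the same table, in which some GO names are blanked out. A function given for a gene is, as a rule, its rarest GO molecular function or else a KEGG pathway, so it is an annotation and not an identity.

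Reads were recovered from the FPKM values of 22740 genes as whole multiples of what 1 read is worth. For 98.16% of them this gave a whole gene length (tolerance 0.001 base), and a common factor was put back in 416. Precision between groups is set by the 3 libraries in each.

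T was compared with CK by limma 3.58.1 (R 4.3.3; lmFit and eBayes with trend) on log2(FPKM + 1), with 4 residual degrees of freedom. The test was two-sided, and p-values were adjusted by Benjamini-Hochberg over the 16421 genes with at least 1 FPKM in at least 3 libraries. A fold change on this scale understates the change of low genes. The criterion of a 2-fold difference or more with an unadjusted p up to 0.05 takes its limits from the methods of the study, which applied them to a count-based test, while here they were applied to limma on log2(FPKM + 1). The fit was checked on simulated data. Tables and figures were made with Python 3.11.15, numpy 2.4.6, pandas 2.3.3 and matplotlib 3.10.9.

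The genes of the set and the lists were chosen with earlier results of these data known. Named by rule were the 15 annotated genes with the largest difference, the 15 annotated genes with the highest mean in the high libraries, the 4 highest of each list with at least 3 genes of the set, the 3 genes nearest to the threshold on either side, and the 13 past the criterion. Alternatives were other pseudocounts, thresholds, filters, scaling, no trend, a replicate block, leaving out each library and, added after seeing the data, voom on recovered reads and another pseudocount and scaling for the differences of the named genes. None of the gene identifiers matched the RefSeq table at hand (0 matches), so promoters were not searched.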

Additional observations from a re-analysis of the deposited data

How the results depend on the processing

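The number of genes that met the rule was 215 with a difference of at least 1 and 25 with a difference of at least 2, and between 83 and 124 under other pseudocounts, minimum levels and scaling. Leaving out each library in turn gave 69 to 196 genes. The number past the fold and unadjusted p criterion in T against CK was 8 after median-of-ratios scaling, 11 to 15 under the other filters, pseudocounts and the voom fit, and 0 to 55 with each library left out. The cause of these shifts was not tested. The number with an adjusted p under 0.05 was 0 under every alternative (limma, and voom on recovered reads), against 13 at an unadjusted p under 0.05. The log2 fold changes of the 13 genes were positive in all 167 recomputed values, a direction that the choice of genes favours, and 28 of the 78 values with a library left out passed the criterion. Of 80 recomputed differences of mean log2(FPKM + 1) of the 40 named genes, 79 moved by less than the spread between libraries.

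CK and T share replicate numbers, and deviations from the group means correlated by 0.28 for number 1, 0.21 for number 2 and -0.04 for number 3, so the numbers were not taken to pair the libraries. With the replicate block 36 genes passed the criterion in place of 13, and not every library correlated best with its own number. Depth limits the low end, where 20 genes rest on fewer than 20 reads in at least 1 library, and the number of libraries, 3 per group, limits the comparison of T with CK.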
